A study of Mus musculus with 2 samples.

Results

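The nucleosome remodelling and deacetylase (NuRD) complex was examined through 10 of its subunit genes, Gatad2a, Gatad2b, Chd3, Chd4, Hdac1, Hdac2, Mta1, Mta2, Mta3 and Mbd3, with Gatad2b set against the other 9. The members were taken by gene name from the deposited table, where each had 1 entry, so that they made up 10 of 34745 listed genes. The members were chosen by gene name, but with the reads and FPKM of Gatad2b in both libraries already known, and Gatad2b was selected on its ratio between them. All values of the members are therefore given as a description, and no test between conditions was made on them.

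Bone marrow cells of mice were cultured for 7 days with GM-CSF, a myeloid growth factor that yields myeloid-derived suppressor cells (MDSCs) in culture, alone (CHBP-) or together with CHBP, a cyclic peptide derived from erythropoietin (CHBP+). According to the methods of the study, both cultures came from mice of the same age range and received the same GM-CSF dose, and monocytic MDSCs (M-MDSCs) were sorted as CD11b+ Ly6G- Ly6C high cells. The strain label reads C57BL/6 for the CHBP- sample but C57BL/7 for the CHBP+ sample, the methods give C57BL/6, and a difference in strain was not tested. The labels give no CHBP dose, and the dose in the methods of the study is none of those in its results. RNA of each condition was sequenced as 1 library, so that an effect of CHBP cannot be told apart from anything else in which these 2 libraries differed.

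NuRD couples an ATP-dependent chromatin remodeller to histone deacetylases and is known for repressing genes and for tuning enhancers while blood cells choose a lineage. CHD3 or CHD4 supplies the remodelling motor, HDAC1 and HDAC2 remove acetyl groups from histones, MTA1, MTA2 or MTA3 form the scaffold that holds the deacetylases, and MBD3, or its relative MBD2 that reads methylated DNA, links this core to the remodeller. GATAD2A and GATAD2B, also called p66 alpha and p66 beta, are a pair of related proteins with a GATA-type zinc finger that join the MBD subunit to the CHD motor. MBD2 and MBD3 exclude each other from a complex, and the other families also offer alternative subunits.

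The deposited counts summed to 16484504 reads in the CHBP- library and 16280466 in the CHBP+ library, of which the 10 members took 17427 and 19960 reads. Levels are given as FPKM, in which the reads of a gene are scaled to its length and to the library total. Itgam, which encodes CD11b, is listed as a pair of overlapping entries, with 157 and 99.99 FPKM in CHBP- and 232 and 153 FPKM in CHBP+ M-MDSC. Ly6c2 had 56.9 and 34.0 FPKM, and Ly6g 2.19 and 2.12 FPKM. The summed FPKM of 6 T cell markers was 4.82 in CHBP- and 3.83 in CHBP+ M-MDSC, that of 5 B cell markers 41.3 and 28.1, that of 6 neutrophil markers 676 and 457, that of 5 dendritic cell markers 128 and 158, that of 4 mast cell and basophil markers 200.2 and 172, and that of 6 erythroid markers 1283 and 587. That of 5 monocyte and macrophage markers was 10314 and 8429, led by Lyz2 with 9756 and 7830 FPKM, while the other 4 were higher in CHBP+ M-MDSC. No marker was at 0 in either library, and of these 7 lists only the dendritic cell sum was higher in CHBP+ M-MDSC. Most of that sum was Itgax, with 107 and 142 FPKM, whereas Flt3 (2.37 and 2.18 FPKM) and Ccr7 (17.6 and 13.1 FPKM) were lower. Zbtb46, under 1 FPKM in both libraries, was higher with CHBP (49 and 93 reads, 0.280 and 0.537 FPKM). Cd209a, also under 1 FPKM, had 13 reads in each library. The part of these cell types in the results was not tested. In bulk RNA, fewer cells of a type and less RNA per cell cannot be told apart.

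Gatad2b was the member that stood apart. Its entry (ENSMUSG00000042390) lies at chr3:90293178-90363407 on GRCm38, and it had 198 reads without CHBP and 1631 reads with CHBP, at 0.808 and 6.74 FPKM. Scaled to the library totals, this was 8.34-fold more reads in CHBP+ M-MDSC, and counting error alone allowed 7.19 to 9.72 (95% Clopper-Pearson interval). On the scale used for all genes, the log2 ratio of FPKM + 1, CHBP+ over CHBP-, it was 2.10 (counting interval 1.99 to 2.20). This scale understates the difference of a gene as low as Gatad2b was in CHBP- M-MDSC. With 1 library per condition, no replicate error can be given for it.

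Among the 10948 genes kept, those that reached 1 FPKM in either library, 7 had a higher log2 ratio than Gatad2b. Gatad2b itself passed this minimum only through the CHBP+ library.

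Gatad2a, the paralogue that can fill the same place, was at nearly the same level in both libraries. It (ENSMUSG00000036180, chr8:69907069-69996379) had 1332 reads without CHBP and 1270 reads with CHBP, at 14.3 and 13.8 FPKM, a log2 ratio of -0.05 (counting interval -0.15 to 0.06). Gatad2a was 17.6 times as abundant as Gatad2b per length without CHBP and 2.04 times with CHBP, so that per length it remained the higher paralogue in both libraries. In reads, which are not divided by length, Gatad2b was the higher of the pair with CHBP (1631 against 1270). The share of Gatad2b in the summed FPKM of the pair was 5.36% in CHBP- M-MDSC (exact Clopper-Pearson interval 4.63 to 6.18%) and 32.9% in CHBP+ M-MDSC (31.3 to 34.5%). The summed FPKM of the pair was 15.1 and 20.5, or 1.36-fold higher in CHBP+ M-MDSC. The gain of Gatad2b, 5.93 FPKM, was larger than the 0.493 FPKM by which Gatad2a was lower.

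**Figure D1:**
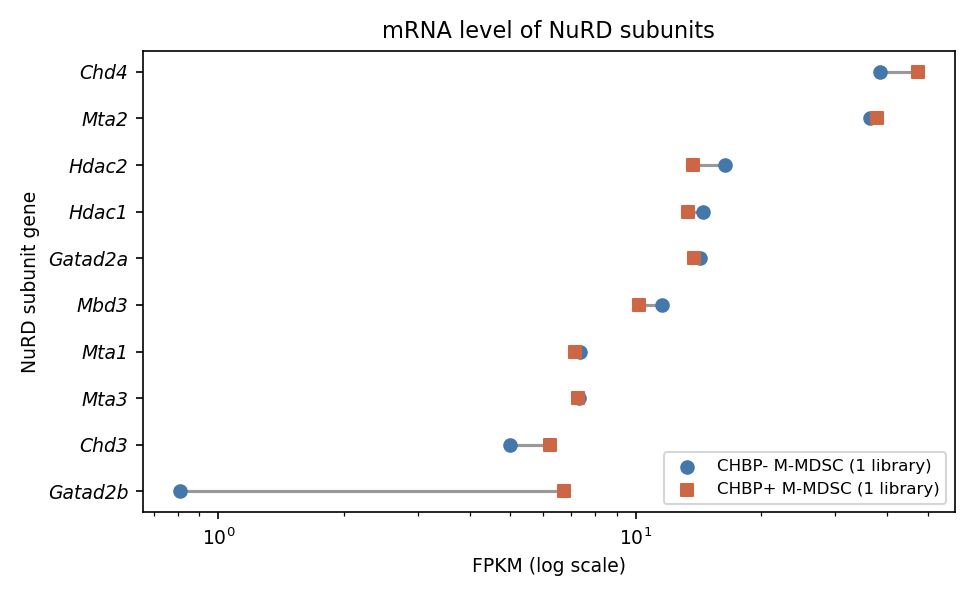
FPKM (log axis) of the 10 NuRD subunit genes, ordered by their level in CHBP- M-MDSC, with a circle for the CHBP- library, a square for the CHBP+ library and a grey line between them. Gatad2b goes from 0.808 to 6.74 FPKM, whereas the circle and square of each of the other 9 genes lie close together.

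The upstream sequences of this pair are shown because the paralogues differed so much in level. They are the 250 bases before the RefSeq start site nearest the 5′ end of the deposited entry on GRCm38.p6, chr3:90292931-90293180 on the plus strand for Gatad2b and chr8:69996385-69996634 on the minus strand for Gatad2a. Capitals mark GATA, the core of the site bound by GATA factors, CCAAT, the CCAAT box, and GGGCGG, the GC box, each on either strand:
Gatad2b: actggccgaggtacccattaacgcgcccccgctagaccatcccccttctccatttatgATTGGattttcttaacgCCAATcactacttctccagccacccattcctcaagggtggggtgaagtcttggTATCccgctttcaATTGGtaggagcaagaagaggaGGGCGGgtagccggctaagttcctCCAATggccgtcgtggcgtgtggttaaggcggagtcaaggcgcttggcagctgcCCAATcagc
Gatad2a: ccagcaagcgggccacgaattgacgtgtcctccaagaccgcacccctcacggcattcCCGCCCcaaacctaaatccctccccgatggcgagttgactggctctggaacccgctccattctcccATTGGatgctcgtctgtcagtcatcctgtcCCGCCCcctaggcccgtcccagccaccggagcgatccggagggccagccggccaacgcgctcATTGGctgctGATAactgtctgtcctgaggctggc
The Gatad2b sequence held 5 CCAAT matches, 1 GATA match and 1 GGGCGG match, and that of Gatad2a held 2, 1 and 2. Of 32851 upstream windows of the same length in the RefSeq table, 33.8% held CCAAT, 53.6% held GATA and 32.7% held GGGCGG. RefSeq windows were found for 7 of the 10 members, and GGGCGG matched in all 7, GATA in 3 (Gatad2a, Gatad2b and Chd4) and CCAAT in 3 (Gatad2a, Gatad2b and Mbd3). The CG dinucleotides numbered 13 for Gatad2b, 18 for Gatad2a and from 12 to 39 over the 7, against a median of 6 over all windows. These matches are letters in a window, and binding was not measured here.

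The remodelling motors were both somewhat higher in CHBP+ M-MDSC. Chd4 (ENSMUSG00000063870, chr6:125095981-125130591), the most abundant member in both libraries, had 6635 reads without CHBP and 8062 reads with CHBP, at 38.5 and 47.4 FPKM. Its reads were 1.23-fold higher, with a counting interval from 1.19 to 1.27, and its log2 ratio was 0.29. Chd3 (ENSMUSG00000018474, chr11:69343273-69369406) had 861 and 1058 reads, or 4.998 and 6.22 FPKM. Its reads were 1.24-fold higher (1.14 to 1.36), and its log2 ratio was 0.27. Because both motors were higher by nearly the same factor, Chd4 held 88.5% of the summed FPKM of this pair without CHBP and 88.4% with CHBP.

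The deacetylases were both slightly lower in CHBP+ M-MDSC. Hdac2 (ENSMUSG00000019777, chr10:36974544-37001889) had 1536 reads without CHBP and 1275 reads with CHBP, at 16.3 and 13.7 FPKM, a log2 ratio of -0.24 that was the lowest of the 10 members. Hdac1 (ENSMUSG00000028800, chr4:129516104-129542713) had 1402 and 1277 reads, or 14.5 and 13.4 FPKM, with a log2 ratio of -0.11. The ratio of scaled reads, CHBP+ over CHBP-, was 0.840 for Hdac2 (0.780 to 0.906) and 0.922 for Hdac1 (0.854 to 0.996). Hdac1 held 47.0% of the summed FPKM of both without CHBP and 49.3% with CHBP, with overlapping counting intervals (45.2 to 48.8% and 47.3 to 51.3%).

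The MTA scaffold genes differed little between the libraries. Mta2 (ENSMUSG00000071646, chr19:8941875-8952303) had 3130 reads without CHBP and 3204 reads with CHBP, at 36.5 and 37.8 FPKM, and was the main MTA gene with 71.3% and 72.4% of the family FPKM. Mta1 (ENSMUSG00000021144, chr12:113098278-113137206) had 729 and 701 reads, or 7.34 and 7.14 FPKM. Mta3 (ENSMUSG00000055817, chr17:83706163-83821516) had 800 and 783 reads, or 7.33 and 7.26 FPKM. Their log2 ratios were 0.05, -0.03 and -0.01, and the counting interval of each spanned 0.

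Mbd3 (ENSMUSG00000035478, chr10:80392539-80399550), the MBD subunit, had 804 reads without CHBP and 699 reads with CHBP, at 11.6 and 10.2 FPKM, a log2 ratio of -0.17. Its ratio of scaled reads was 0.880, with a counting interval from 0.794 to 0.975. Mbd2, which takes its place in a separate form of the complex, had 35.1 and 31.0 FPKM, so that Mbd3 held 24.8% of the summed FPKM of this pair without CHBP and 24.7% with CHBP. Rbbp4 and Rbbp7, the histone-binding subunits, had 26.2 and 29.6 FPKM in CHBP- and 23.3 and 26.1 FPKM in CHBP+ M-MDSC. Rbbp4 held 46.9% and 47.2% of their sum. Across these families, the GATAD2 pair was the one in which the share of a paralogue differed by more than 2.32 percentage points between the libraries, with a difference of 27.5 points.

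**Figure D2:**
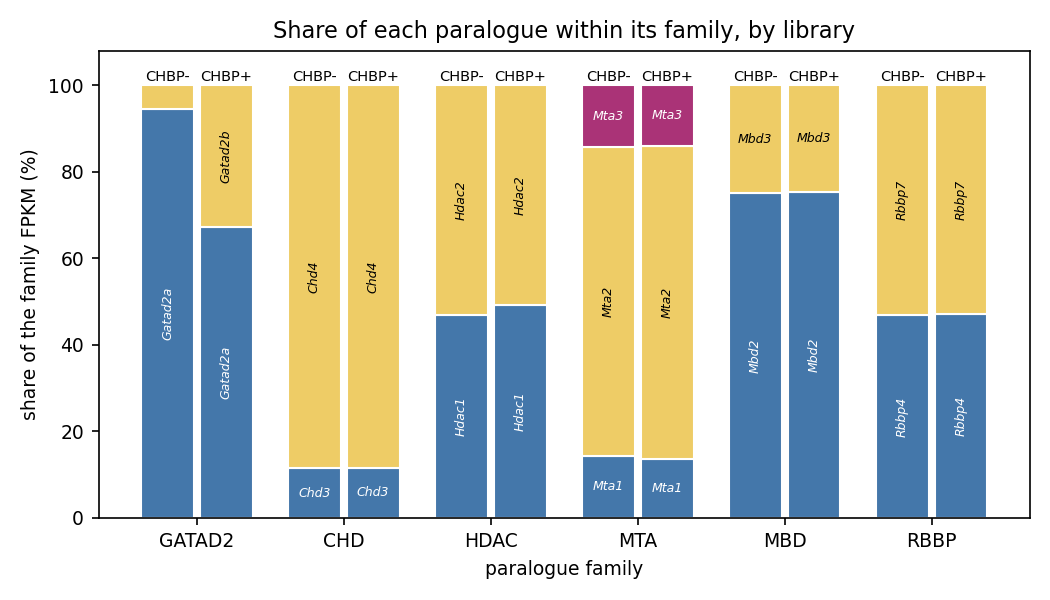
Share of each paralogue in the summed FPKM of its family (%, stacked to 100) for 6 NuRD subunit families, with the CHBP- library on the left and the CHBP+ library on the right of each pair of bars. The unlabelled top of the first bar is Gatad2b at 5.36%, against 32.9% in CHBP+ M-MDSC, and the bars of the other families look alike in both libraries.

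Of the 10 members, 1 was at least 1.5-fold higher in CHBP+ M-MDSC, the fold threshold of the study, and 0 were at least 1.5-fold lower. The one was Gatad2b. Among all genes kept, 3.42% were at least 1.5-fold higher and 2.89% at least 1.5-fold lower. The log2 ratios of the other 9 members ran from -0.24 to 0.29, with 3 above and 6 below 0. Their median was -0.03, which was also the median over all genes kept. Mta3, at -0.01, lay above 0 when the libraries were rescaled as a whole by trimmed or median ratios. With the length trend removed, Gatad2b remained the 1 member at least 1.5-fold higher, against 2.85% of the genes kept. The counting intervals of the other 9 lay above 0 for 2, below 0 for 3 and spanned 0 for 4. Gatad2b exceeded the median of the other 9 by 2.13 and the highest of them, Chd4, by 1.81 on this log2 scale. The summed FPKM of the other 9 was 151 without CHBP and 157 with CHBP, a ratio of 1.04, and Gatad2b added 0.531% and 4.12% to the sum of the 10.

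**Figure D3:**
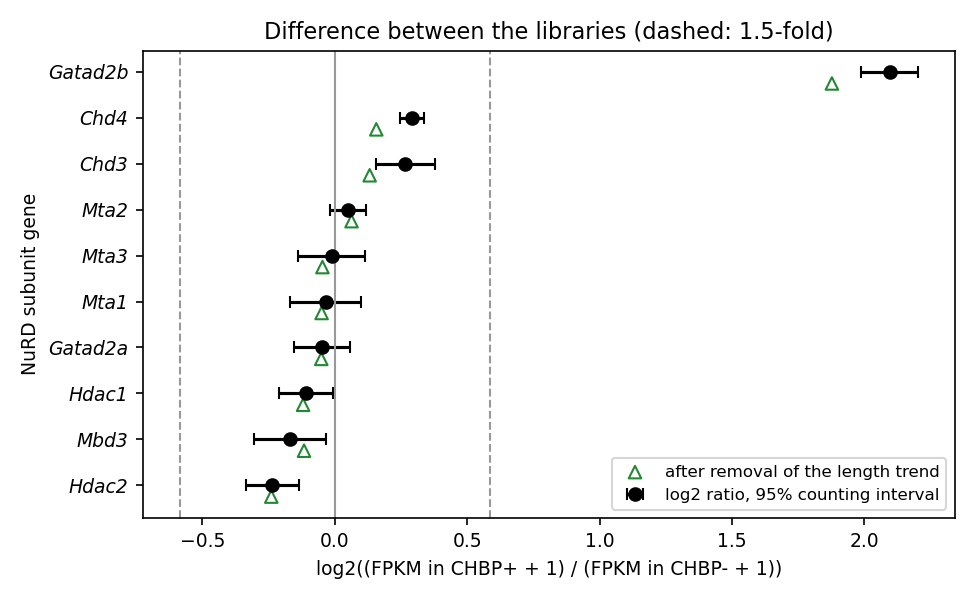
Log2 ratio of each NuRD subunit gene (CHBP+ over CHBP-, FPKM with a pseudocount of 1), with bars for the 95% counting interval, open triangles for the value after removal of the trend with gene length, and dashed lines at 1.5-fold in each direction. Gatad2b lies at 2.10 and the other 9 genes lie between -0.24 and 0.29, inside the dashed lines.

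In CHBP- M-MDSC the order of the levels per length was Chd4, Mta2, Hdac2, Hdac1, Gatad2a, Mbd3, Mta1, Mta3, Chd3 and Gatad2b. In CHBP+ M-MDSC it was Chd4, Mta2, Gatad2a, Hdac2, Hdac1, Mbd3, Mta3, Mta1, Gatad2b and Chd3. Neighbours in this order whose FPKM did not differ beyond counting error were Hdac1 and Gatad2a, and Mta1 and Mta3, in CHBP- M-MDSC. In CHBP+ M-MDSC they were Gatad2a and Hdac2, Hdac2 and Hdac1, Mta3 and Mta1, and Mta1 and Gatad2b. The gap just above Gatad2b was 6.19-fold in CHBP- M-MDSC, where Chd3 was next, and 1.06-fold (0.969 to 1.16) in CHBP+ M-MDSC, where Mta1 was next. Chd4 was 47.7 times as abundant as Gatad2b per length without CHBP and 7.04 times with CHBP.

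The log2 ratio followed gene length across the data, with Spearman's rho of 0.478 over the genes kept, which are not independent replicates, so each member was also set against the value that the fitted trend gives at its length. Gatad2b, at 14.9 kb the longest member by the length used for FPKM, had a trend value of 0.22, and its log2 ratio less the trend was 1.88. Chd4 and Chd3, the next longest at 10.4 and 10.5 kb, had trend values of 0.14 each, and their log2 ratios less the trend were 0.16 and 0.13. The other 9 members lay from -0.24 to 0.16 around the trend, all within the SD of 0.303 of the genes kept around it. Of 785 genes kept with a length within 1.2-fold of that of Gatad2b, 65 (8.28%) were at least 1.5-fold higher in CHBP+ M-MDSC, and 1, Gatad2b itself, reached its log2 ratio. Because Gatad2b was selected on this ratio, its place among them is a description only.

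**Figure D4:**
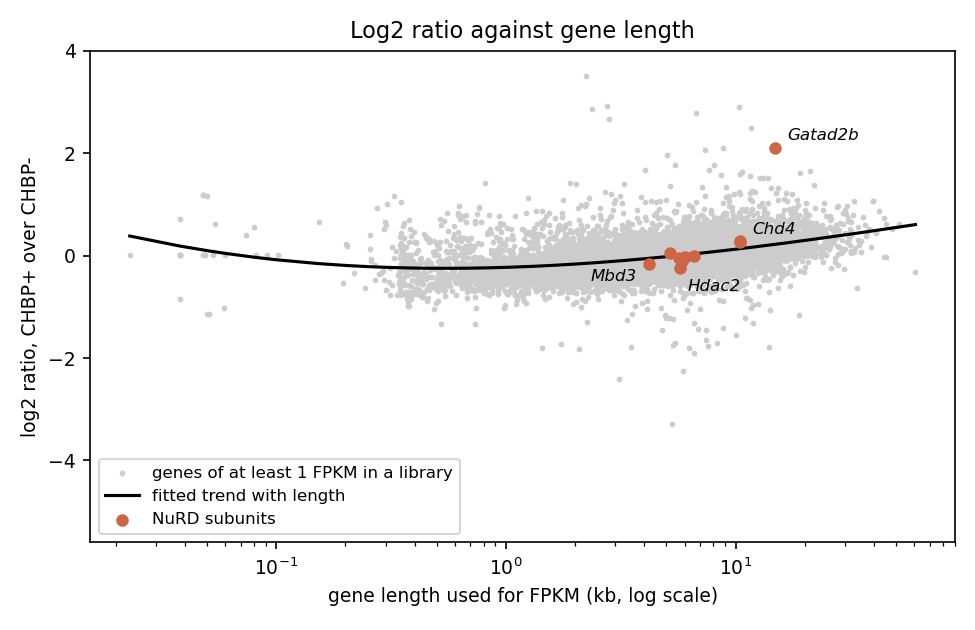
Log2 ratio (CHBP+ over CHBP-) against the gene length used for FPKM (kb, log axis) for the 10948 genes kept (grey), with the fitted trend (black line) and the 10 NuRD subunits (orange). Gatad2b, at 14.9 kb and 2.10, lies far above the line, and the other 9 members lie near it.

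Genes near Gatad2b in the genome had smaller differences between the libraries. Within 150 kb of either end, 15 other genes had at least 10 reads in a library. Their log2 ratios ran from -0.39 to 0.18, and their ratios of scaled reads from 0.742 to 1.16. On FPKM + 1, 0 of the 15 were at least 1.5-fold apart, against 3.42% of the genes kept that were higher and 2.89% lower. Nup210l, Rps27, Creb3l4, Slc27a3 and Npr1 were under 1 FPKM in both libraries, where this scale pulls ratios towards 0. Counting error alone allowed 0.384 to 1.98 for the ratio of scaled reads of Creb3l4. The nearest of the 15 on each side were Dennd4b, 12.5 kb away with 771 and 881 reads, and Slc27a3, 21.8 kb away with 24 and 21 reads. Of the listed genes that overlap Gatad2b, RP24-333B11.4 and RP24-333B11.5 had 0 reads in both libraries, and 4930537H20Rik, whose span covers the start of Gatad2b, had 0 and 1. The overlapping entries thus held at most 1 read in a library. Of the other members, only Chd3 overlaps a listed gene, Gm17305, with 0 reads in both libraries.

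The genes whose log2 ratio was closest to that of Gatad2b, apart from Gm numbers and Rik names, were Slc36a1 (2.07), a lysosomal amino acid transporter, Zbed6 (1.95), a transcriptional repressor, Sertad2 (1.76), Egr2 (1.76), a zinc finger transcription factor, and Myadm (2.49). This likeness rests on 1 difference between 2 libraries. Slc36a1 had 145 reads without CHBP and 981 with CHBP, and Zbed6 had 149 and 805. Zbed6 and Myadm overlap another listed gene with at least 10 reads, so their counts are uncertain.

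Other NuRD genes were looked up from a list. Of 6 further subunits, 5 reached 1 FPKM in at least one library, and Chd5, a CHD motor known from neurons, did not, with 77 and 93 reads. All 5 were lower in CHBP+ M-MDSC, but 0 of the 5 by 1.5-fold, against 2.89% of the genes kept. Their log2 ratios ran from -0.46 to -0.16, with a median of -0.18, or -0.28 after removal of the length trend. The lowest, named after their values were seen, were Cdk2ap1 (-0.45) and Cdk2ap2 (-0.46), which had 4.52 and 21.9 FPKM in CHBP- and 3.04 and 15.7 FPKM in CHBP+ M-MDSC. CDK2AP1, also known as DOC-1, is a small subunit that joins the complex.

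Of 22 factors known to bind or recruit NuRD, 16 reached 1 FPKM, 10 of them above and 6 below 0, with a median log2 ratio of 0.17. Its genes were longer than the genes kept as a whole (median length 7.97 against 4.94 kb), and after removal of the length trend its median was 0.01. Adnp, which forms a complex of its own with CHD4, was the 1 gene of the 16 at least 1.5-fold higher, against 3.42% of the genes kept, with 1208 reads without CHBP and 1844 reads with CHBP, at 11.8 and 18.2 FPKM. Its log2 ratio of 0.59 was just past the threshold, and after removal of the length trend it was 0.57, below it. This count is particular to FPKM + 1. In scaled reads Adnp was 1.55-fold and Ikzf1 1.54-fold higher, and Gata1 had a ratio of 0.629, but Ikzf1 (log2 ratio 0.53) and Gata1 (-0.47), named after their values were seen, were within the threshold. Gata2, a GATA factor of blood progenitors and mast cells, was among the most abundant with 13.6 and 12.2 FPKM. Of the 6 under 1 FPKM, 3 (Zfpm2, Sall1 and Sall4) had no read in either library, for which 3 reads set the floor, 0.182 CPM (reads scaled to the library total) without CHBP and 0.184 CPM with it.

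The GATA-type zinc finger occurs in other genes as well, and of 10 such genes, 5 reached 1 FPKM. Rere, a transcriptional corepressor with the finger, was the 1 of the 5 at least 1.5-fold higher, against 3.42% of the genes kept, with 233 reads without CHBP and 643 reads with CHBP, at 1.12 and 3.13 FPKM. Its log2 ratio was 0.96, and 0.78 after removal of the length trend. Gatad1, which is no NuRD subunit in spite of its name, had 9.63 and 8.37 FPKM, a log2 ratio of -0.18. The median of the 5 was -0.15, and -0.17 after removal of the length trend.

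Complexes that use HDAC1, HDAC2 or HDAC3 apart from NuRD gave a mixed picture. Of 23 genes of the SIN3, CoREST and NCoR complexes, 22 reached 1 FPKM, with 12 above and 10 below 0 and a median log2 ratio of 0.03, or -0.07 after removal of the length trend. Arid4b (454 and 899 reads, log2 ratio 0.67), a SIN3 subunit, and Ncor1 (2783 and 4527 reads, 0.66), the scaffold of an HDAC3 complex, were at least 1.5-fold higher, 2 of the 22 against 3.42% of the genes kept. Sap18 (368 and 190 reads, -0.69), a small SIN3-associated protein, was the 1 at least 1.5-fold lower, against 2.89%. In scaled reads Ing2, named after its value was seen, had a ratio of 0.633, but on FPKM + 1 it was at -0.55, within the threshold. After removal of the length trend, Arid4b was at 0.38, Ncor1 at 0.35 and Sap18 at -0.69. Adnp, Gatad1, Arid4b, Ncor1 and, among the subunits above, Rbbp7 have spans that overlap another listed gene with at least 10 reads, which the counting could have affected. The most abundant of the SIN3, CoREST and NCoR list by mean FPKM of both libraries were Brms1, with 37.0 and 28.4 FPKM, and Sap30, with 23.8 and 17.7 FPKM.

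**Figure D5:**
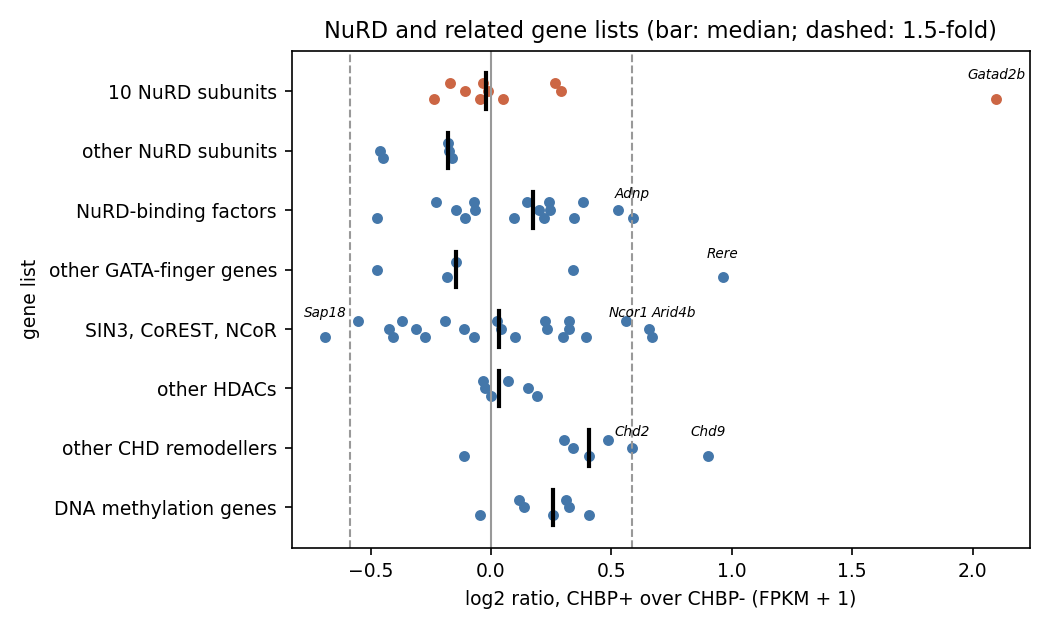
Log2 ratio (CHBP+ over CHBP-) of the 10 NuRD subunits (orange) and of the genes of 7 related lists (blue) that reached 1 FPKM in at least one library, with a black bar for each median, dashed lines at 1.5-fold and names for genes past them. Gatad2b at 2.10 is the highest value shown, followed by Rere at 0.96.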

How the data were processed

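The labels and the paper gave the same treatments for both libraries. The deposited counts are whole reads per gene and the deposited FPKM are these counts over gene length and library total, so the length could be recovered from both. The authors removed adapters, low-quality 3′ bases, short reads and ribosomal RNA reads. The paper names TopHat2, HT-seq, DESeq and mm9, whereas the submitters' processing notes name HISAT2 2.0.4, Cufflinks 2.1.1, Cuffdiff and mm10 (GRCm38). The deposited coordinates of all 10 members overlap their RefSeq gene on GRCm38. Multi-mapping and strand handling are not given in the sources used here, so reads of paralogues and overlapping genes are uncertain.

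With 1 library per condition, no count model was fitted. The DESeq P value named in the paper was not computed. Genes that reached 1 FPKM in either library were kept, and a fold of at least 1.5 on FPKM + 1 was counted. Intervals are 95% Clopper-Pearson intervals of a gene's reads between libraries, or between paralogues within a library. They cover counting error only. They treat reads as independent molecules, which reads are not, so they can be too narrow. The length trend was a least-squares polynomial of degree 3 in log10 length. The trend removal and the intervals were also run on simulated reads, with a straight-line length trend and counting error as the only noise. How they perform on the wider spread of real libraries was not tested. The alternatives were a pseudocount of 0.1, CPM, no filter, a minimum of 5 FPKM, trimmed mean of M values (TMM, edgeR 4.0.16 in R 4.3.3), median centring, trend removal, leaving out overlapping genes, and a 2-fold threshold. The members and lists were chosen with earlier results of these data known. The genes named are the 10 members and paralogues of their families. List genes are named if at least 1.5-fold apart or among the 2 most abundant of a list. Others are the 5 genes nearest Gatad2b in log2 ratio, genes that overlap a member, and genes within 150 kb of Gatad2b. Cell type markers, some list genes under 1 FPKM and genes marked as named after their values were seen are named as well. Python 3.11.15, numpy 2.4.6, pandas 2.3.3, scipy 1.17.1 and matplotlib 3.10.9 were used. RefSeq promoter sequences (GRCm38.p6) were used for 7 members. The protein and cell assays of the study were not analysed here.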

Additional observations from a re-analysis of the deposited data

How the results depend on the processing

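Gatad2b was the 1 member past the fold threshold, and 0 members were lower, under every alternative run, the 2-fold threshold included. On the log2 scale its ratio was 2.91 at a pseudocount of 0.1, 2.96 with CPM and 1.88 with the length trend removed, and its difference from the median of the other 9 was 2.95, 3.00 and 1.93. A smaller pseudocount relative to its level gives the higher values by construction. With CPM, reads are not divided by length, and the share of Gatad2b in the GATAD2 pair was 12.9% in CHBP- and 56.2% in CHBP+ M-MDSC. With the trend removed its share in CHBP+ M-MDSC was 29.6%. The share uses no pseudocount. Filters on low values and leaving out overlapping genes cannot change the ratio of a gene kept, so 27 of 72 values of the other 9 members were fixed by construction. Of the 45 that could change, 43 stayed within their counting interval. Those that left it were Chd3 (0.13) and Chd4 (0.16) with the trend removed. TMM and median centring rescale a library as a whole, and with them Mta3 lay at 0.00098 and 0.017. No paired analysis was possible because each condition was sequenced once. For the same reason no replicate was left out. Gatad2b had 198 reads in CHBP- M-MDSC, which limits how precisely its ratio is known.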

Other observations

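Genes that are related to NuRD subunits by sequence or by the mark they act on were looked up in the same way, as values with no test. Of 7 other CHD remodellers, all 7 reached 1 FPKM and 6 were above 0, with a median log2 ratio of 0.41. Chd9 (724 reads without and 1504 with CHBP, log2 ratio 0.90) and Chd2 (1771 and 2815 reads, 0.59) were at least 1.5-fold higher, 2 of the 7 against 3.42% of the genes kept. The median gene length of this list was 21.2 kb, against 4.94 kb for all genes kept, and after removal of the length trend its median was 0.14, with Chd9 at 0.74 and Chd2 at 0.25. In scaled reads Chd6, named after its value was seen, was 1.58-fold higher, but its log2 ratio on FPKM + 1 was 0.41. Chd1, the most abundant of the list, had 13.5 and 17.3 FPKM. The spans of Chd1 and Chd2 overlap another listed gene with at least 10 reads, so their counts are uncertain.

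Of 8 other histone deacetylases, 6 reached 1 FPKM and 0 of them were 1.5-fold apart, with log2 ratios from -0.03 to 0.19 and a median of 0.03, or -0.06 after removal of the length trend. Hdac5 had 3.16 and 3.07 FPKM and Hdac4 2.16 and 2.51 FPKM, each below both Hdac1 and Hdac2 per length. Of 8 genes that bind or copy DNA methylation, 7 reached 1 FPKM and 6 were above 0, with 0 at least 1.5-fold apart, against the same shares. Their median log2 ratio was 0.26, or 0.13 after removal of the length trend. Dnmt1, the maintenance DNA methyltransferase, had 31.1 and 39.1 FPKM, and Mbd1 had 14.4 and 17.4 FPKM.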
